A study of Mus musculus with 12 samples.

Results

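The genes described here are 40 that serve protein folding in the endoplasmic reticulum (ER), entry of proteins into it, degradation from it and the unfolded protein response (UPR). They were chosen by name, as ER chaperone, translocon and UPR genes, and the rule used no measured value, although the set was drawn up with earlier results of these data known. All 40 were found among the 46078 genes counted, each in 1 row, and all 40 had enough reads to be tested in every comparison. They are described in B cells of mouse spleen in which the transcription factor gene Zbtb24 was deleted or not.

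RNA was sequenced from 12 libraries in 4 groups of 3: marginal zone (MZ) B cells of conditional knockout (CKO) mice, MZ B cells of control mice, follicular (FO) B cells of CKO mice and FO B cells of control mice. The mice were of strain C57BL/6 and 8 to 12 weeks old. CKO mice are labelled VAVcre-Zbtb24 and Zbtb24-/-, control mice VAVcre and WT. By these labels both genotypes carry the Vav-driven Cre, which acts throughout the blood lineage and so is not limited to B cells. Cells were separated with a magnetic MZ and FO B cell kit, and 6 animal numbers appear once among the MZ and once among the FO libraries, so each of the 3 CKO and 3 control mice is taken to have given 1 library of each kind. The replicates are animals by these numbers.

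The ER folds proteins that are secreted or shown at the cell surface, antibodies included. When unfolded proteins build up there, the sensors IRE1 (gene Ern1), PERK (Eif2ak3) and ATF6 (Atf6) start the UPR, which raises the genes of chaperones, of the translocon through which chains enter, and of ER-associated degradation (ERAD). Plasma cells are known for a very large ER, and MZ B cells are known to turn into plasma cells faster than FO B cells do. Many UPR genes carry in their promoters the ER stress response element (ERSE), a CCAAT followed after 9 bases by CCACG, or the related ERSE-II, an ATTGG followed after 1 base by CCACG.

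These elements were looked for on both strands of RefSeq promoter windows (GRCm38.p6) that run 250 bases before to 50 bases after each gene's start. A window was at hand for 33 of the 40 genes. The ERSE was found in 9 of the 33 (27.3%), against 37 of all 27025 genes with a window (0.137%), and the ERSE-II in 2 of 33 (6.06%), against 12 genes in all (0.0444%). The ERSE genes were Calr, Canx, Creld2, Derl3, Dnajc3, Hsp90b1, Hspa5, Pdia6 and Syvn1, and the ERSE-II genes Dnajb11 and Herpud1. No match overlapped another. The core TGACGTG, a motif of the ATF6 and CREB families, was found in the windows of Fkbp11, Hspa5 and Txndc5 (9.09%, against 2.22% of all genes). A match is a stretch of letters and not a measured binding site, and its absence here concerns these windows only.

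The 250 bases before the start are printed for the gene with the largest MZ to FO difference, which had no match, and for the 5 genes with an ERSE or ERSE-II that differed between MZ and FO B cells, all read 5′ to 3′ along the gene's own strand. Capitals mark the fixed letters of an ERSE or ERSE-II on either strand, and of TGACGTG in Hspa5. The windows are at chr6:47813513-47813762, minus strand, for Pdia4, chr2:34771840-34772089, plus strand, for Hspa5 and chr14:118937682-118937931, plus strand, for Dnajc3. Those of the others are at chr10:75893148-75893397, plus strand, for Derl3, chr8:84846932-84847181, minus strand, for Calr and chr8:94386179-94386428, plus strand, for Herpud1.
Pdia4: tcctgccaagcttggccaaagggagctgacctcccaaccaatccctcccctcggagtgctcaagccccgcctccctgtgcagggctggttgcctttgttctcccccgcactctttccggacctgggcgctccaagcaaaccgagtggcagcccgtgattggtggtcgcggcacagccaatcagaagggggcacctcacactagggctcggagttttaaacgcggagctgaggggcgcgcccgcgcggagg
Hspa5: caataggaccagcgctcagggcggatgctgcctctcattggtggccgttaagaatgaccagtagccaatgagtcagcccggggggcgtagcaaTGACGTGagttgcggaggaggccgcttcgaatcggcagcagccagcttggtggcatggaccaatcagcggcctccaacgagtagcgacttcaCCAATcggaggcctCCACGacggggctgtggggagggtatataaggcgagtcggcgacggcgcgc
Dnajc3: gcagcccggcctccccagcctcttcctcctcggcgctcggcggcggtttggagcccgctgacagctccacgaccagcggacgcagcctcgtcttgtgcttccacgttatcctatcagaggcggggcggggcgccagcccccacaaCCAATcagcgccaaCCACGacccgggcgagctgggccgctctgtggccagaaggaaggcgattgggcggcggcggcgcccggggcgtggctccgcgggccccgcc
Derl3: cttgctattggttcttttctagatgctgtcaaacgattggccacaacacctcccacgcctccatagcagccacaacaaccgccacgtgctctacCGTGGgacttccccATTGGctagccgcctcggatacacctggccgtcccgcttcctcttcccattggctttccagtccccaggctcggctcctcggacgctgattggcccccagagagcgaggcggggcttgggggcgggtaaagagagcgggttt
Calr: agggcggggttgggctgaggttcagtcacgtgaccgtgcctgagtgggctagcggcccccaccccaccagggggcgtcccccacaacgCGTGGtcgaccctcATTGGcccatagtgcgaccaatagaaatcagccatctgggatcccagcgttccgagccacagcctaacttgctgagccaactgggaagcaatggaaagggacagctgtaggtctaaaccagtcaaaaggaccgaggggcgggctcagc
Herpud1: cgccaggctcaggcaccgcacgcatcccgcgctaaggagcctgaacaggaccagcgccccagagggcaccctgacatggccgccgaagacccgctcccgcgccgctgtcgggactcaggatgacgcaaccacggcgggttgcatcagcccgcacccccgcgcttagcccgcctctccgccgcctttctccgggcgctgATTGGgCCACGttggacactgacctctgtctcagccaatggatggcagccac
In Hspa5 and Dnajc3 the ERSE reads forward, in Derl3 and Calr it lies on the opposite strand, as CGTGG and ATTGG, and in Herpud1 the ERSE-II reads forward.

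Levels are CPM, the counts of a gene per 1000000 reads in genes, with TMM scaling to even out library composition. Between 36340116 and 44629250 reads per library fell in genes, and 5 entries that name no gene held a further 43.2% to 50.4% of all listed reads. The labels held up in part on known genes: all 8 MZ markers were higher in MZ than in FO libraries of both genotypes, and all 6 FO markers lower in control mice and 5 of 6 in CKO mice. Zbtb24 itself had 46.4, 41.8 and 41.9 CPM in MZ CKO and 49.1, 52.96 and 54.4 CPM in MZ control libraries. Zbtb24 stood at 48.4, 46.9 and 50.04 CPM in FO CKO and 62.5, 60.9 and 60.8 CPM in FO control libraries. It was lower in every CKO library than in any control library of its cell type. The difference did not pass the test over all genes in MZ (adjusted p = 1) or FO B cells (adjusted p = 0.19, edgeR), and a count over the whole gene does not say how much of the deleted stretch remained. Cdca7, a gene known to need Zbtb24, had 2.76, 5.37 and 1.88 CPM in MZ CKO and 33.1, 42.5 and 33.7 CPM in MZ control libraries. Cdca7 measured 1.01, 2.64 and 0.550 CPM in FO CKO and 31.7, 33.8 and 32.4 CPM in FO control libraries. Its groups did not overlap in either cell type. Even so it did not pass in MZ (log2 -3.45, adjusted p = 0.29) or FO B cells (log2 -4.54, adjusted p = 0.56, edgeR).

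Some of the 40 genes were higher and others lower in MZ than in FO B cells, in both genotypes. The disulfide isomerase gene Pdia4 was 4.09-fold higher in MZ than in FO B cells of CKO mice and 4.6-fold higher in control mice. The ERAD genes Derl3 and Edem1, the sensor genes Atf6 and Ern1 and the chaperone genes Hspa5 and Dnajc3 also rose in MZ B cells of both genotypes, while Txndc5, Fkbp11 and Herpud1 fell. In CKO mice 13 of 40 passed the test (32.5%), 10 higher and 3 lower. Of all 17712 genes tested there, 18.3% passed, 10.5% higher and 7.78% lower. In control mice 17 of 40 passed (42.5%), 12 higher and 5 lower. Of all 17830 genes tested there, 27.9% passed, 14.9% higher and 13.0% lower. The test was edgeR's quasi-likelihood F test of 3 MZ against 3 FO libraries, two-sided, and to pass meant a p under 0.05 once adjusted by Benjamini-Hochberg across every tested gene.

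All 13 genes that passed in CKO mice also passed in control mice, in the same direction, which is 76.5% of the 17. They are Atf6, Derl1, Derl3, Dnajc3, Edem1, Edem2, Ern1, Hspa5, Pdia4 and Sec61b, higher in MZ, and Fkbp11, Herpud1 and Txndc5, lower. Calr and Manf, lower, and Dnajb9 and Ssr4, higher, passed in control mice and missed the threshold in CKO mice. The difference between the genotypes did not pass for them or any other of the 40 genes (adjusted p = 1 for each, edgeR, libraries of a mouse not paired). Nor did it pass for any of the 40 with the mouse as a block. The median log2 fold change of the 40 was 0.11 in CKO and 0.08 in control mice, against -0.01 and 0.01 over all genes tested. With 1 library left out, the CKO median ran from 0.05 (without MZ CKO replicate 1) to 0.16 (without MZ CKO replicate 3). The control median ran from 0.06 (without MZ control replicate 2) to 0.12 (without MZ control replicate 1). The 2 comparisons share no library, and 39 of 40 genes had the same sign in both, against 81.6% of the 17415 genes tested in both. Within single mice, 19 of the 40 genes were higher in the MZ library of 6 of 6 mice, where 23.1% of all genes were, 8 were lower in 6 of 6, where 22.6% were, and 13 were mixed.

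With the mouse as a block, which the shared animal numbers allow, 20 of the 40 passed in CKO mice, 15 higher and 5 lower, where 35.8% of all genes passed (19.2% higher, 16.6% lower). In control mice 24 passed with the block, 16 higher and 8 lower, where 43.8% of all genes did (22.4% higher, 21.3% lower). The genes gained in CKO mice were Calr and Eif2ak3, lower, and Dnajb9, Pdia3, Sec61a1, Ssr2 and Ssr4, higher. Those gained in control mice were Creld2, Edem3 and Eif2ak3, lower, and Hsp90b1, P4hb, Pdia3 and Ssr2, higher. Without the block, leaving out 1 library at a time gave 7 to 13 genes in CKO mice and 13 to 17 in control mice. The lowest count, 7, came without FO CKO replicate 1, when Derl1, Derl3, Edem2, Ern1, Hspa5 and Sec61b missed the threshold and 4 genes were higher and 3 lower. The other 7, Atf6, Dnajc3, Edem1, Pdia4, Fkbp11, Herpud1 and Txndc5, passed in both genotypes under each of the 13 settings run per comparison.

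**Figure D1:**
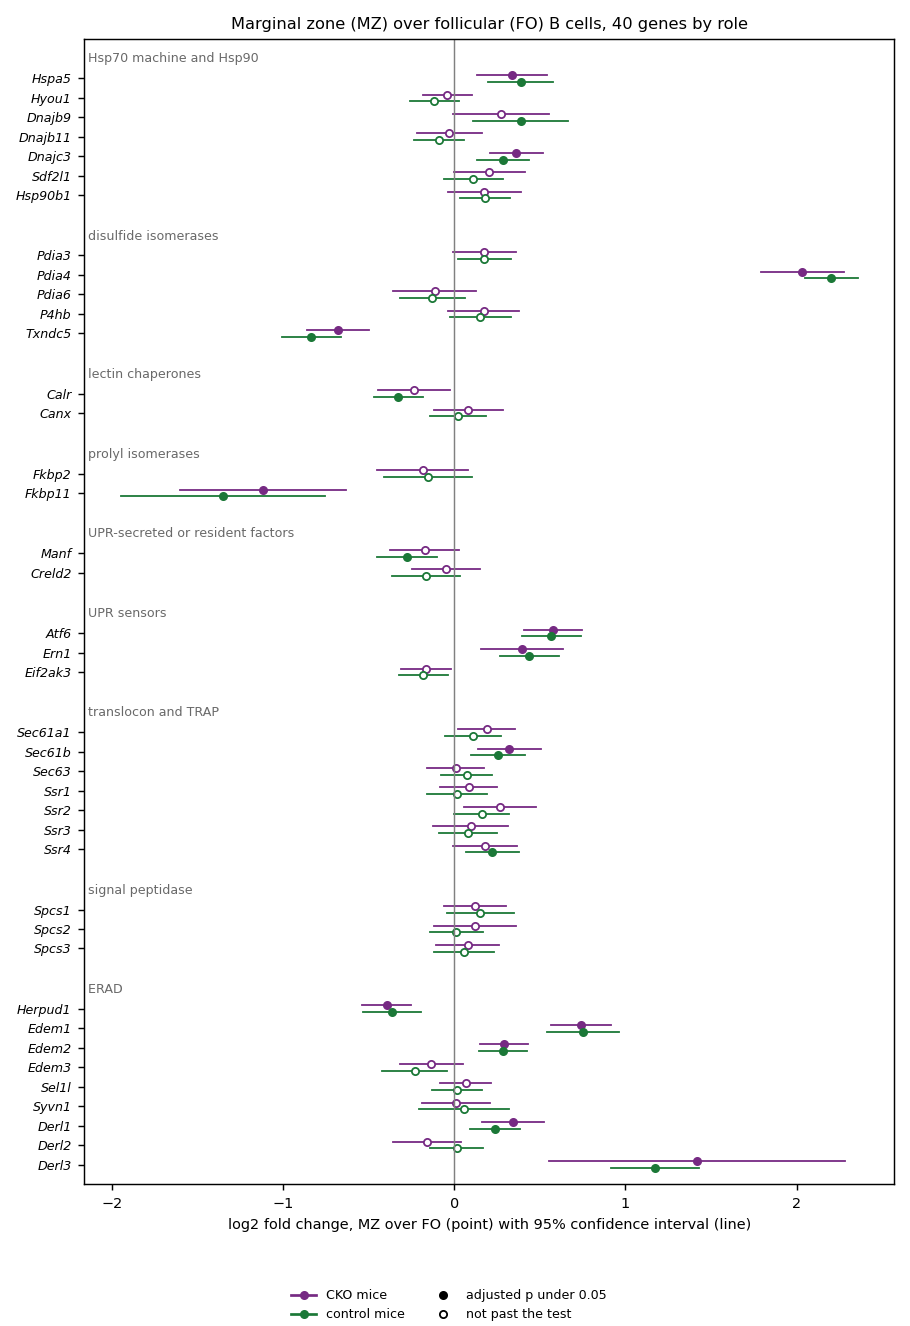
Log2 fold change of MZ over FO B cells for each of the 40 genes, grouped by role, in CKO mice (purple, upper point of each pair) and control mice (green, lower point), with 95% confidence intervals; filled points passed at an adjusted p under 0.05. Pdia4 lies near 2 in both genotypes, Fkbp11 below -1, and most translocon and signal peptidase genes lie close to 0.

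Some marker genes of other cell types, and some genes that can respond to cell handling, also differed between MZ and FO libraries. Of 7 T cell markers, 2 in CKO mice and 5 in control mice were lower in MZ libraries. Their summed level was 104 to 159 CPM in MZ CKO, 119 to 196 in MZ control, 169 to 232 in FO CKO and 243 to 277 in FO control libraries. Of 10 immediate early genes, which stress during cell isolation can raise, 5 in CKO mice and 4 in control mice were lower in MZ libraries, and of 10 cytosolic heat shock genes 2 and 3 were higher. Of 8 plasma cell markers, 3 were higher in MZ libraries (Prdm1, Ell2 and Irf4) and 2 lower (Sdc1 and Slamf7) in both genotypes. The summed plasma cell markers were at 496 to 502 CPM in MZ CKO, 479 to 546 in MZ control, 422 to 492 in FO CKO and 446 to 507 in FO control libraries, so the cell types overlapped in control mice and not in CKO mice. Of the other lists, 1 of 5 B-1 cell markers was higher in CKO mice, and 2 were higher and 1 lower in control mice. In CKO mice 1 NK cell marker was higher and 2 lower and 1 macrophage or monocyte marker was lower, and in control mice 1 dendritic cell marker was lower. None of the neutrophil or of the erythroid and platelet markers passed in either genotype by edgeR. Beside these counts, 10.5% of all genes were higher and 7.78% lower in CKO mice, and 14.9% and 13.0% in control mice. No marker of these lists was at 0 in all libraries. The part of these cells and of handling in the results was not tested, and in bulk RNA fewer cells of a type and less RNA per cell cannot be told apart.

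Among the disulfide isomerases, enzymes that make and rearrange disulfide bonds, Pdia4 (ENSMUSG00000025823, chr6:47796141-47813430, minus strand, GRCm38) stood first. It had 1410, 1092 and 1289 CPM in MZ CKO and 1321, 1322 and 1280 CPM in MZ control libraries. Pdia4 came to 314, 295 and 323 CPM in FO CKO and 266, 289 and 298 CPM in FO control libraries. The lowest MZ library was more than 3 times the highest FO library, whichever the genotype. The log2 fold change was 2.03 in CKO mice (95% confidence interval 1.79 to 2.27, adjusted p = 9.8e-06) and 2.20 in control mice (2.05 to 2.36, adjusted p = 6.2e-09). Per kilobase of exon it was the highest of the 40 genes in MZ B cells, at 527 CPM per kb in CKO and 545 in control mice, while in FO B cells Calr was highest, at 216 CPM per kb in CKO and 203 in control mice.

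Txndc5, a disulfide isomerase with thioredoxin-like domains, went the other way, with 157, 157 and 136 CPM in MZ CKO and 125, 145 and 123 CPM in MZ control libraries. Txndc5 was at 251, 227 and 247 CPM in FO CKO and 245, 235 and 222 CPM in FO control libraries. MZ and FO libraries did not overlap, and the fall passed in both genotypes (log2 -0.68, adjusted p = 4.6e-04, in CKO mice and log2 -0.83, adjusted p = 1.3e-05, in control mice). Some 11.9% of its exon bases also lie in other annotated genes. Pdia3, Pdia6 and P4hb, the remaining isomerases, had log2 fold changes between -0.13 and 0.18 and passed in neither genotype. With the mouse as a block Pdia3 passed as higher in both (adjusted p = 0.042 in CKO and 0.014 in control mice). P4hb did so in control mice (adjusted p = 0.0375).

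Of 7 genes of the ER Hsp70 machine and Hsp90, 2 rose in MZ B cells of CKO mice, 3 in control mice, and none passed as lower. The shares over all genes were 10.5% higher and 7.78% lower in CKO mice, and 14.9% and 13.0% in control mice. Hspa5, which encodes the Hsp70 chaperone BiP, had 739.5, 659 and 624 CPM in MZ CKO and 630.1, 717 and 614 CPM in MZ control libraries. Hspa5 stood at 542, 567 and 501 CPM in FO CKO and 484, 554 and 461 CPM in FO control libraries. MZ libraries lay above FO libraries within each genotype, by 1.26-fold in CKO mice (adjusted p = 0.032) and 1.31-fold in control mice (adjusted p = 0.006). In CKO mice this call was lost without any 1 library other than MZ CKO replicate 3 (adjusted p between 0.051 and 0.12). Dnajc3, a J-domain partner of BiP also known as P58IPK, had 139, 124 and 126 CPM in MZ CKO and 123, 137 and 130.2 CPM in MZ control libraries. Dnajc3 measured 98.3, 104 and 101 CPM in FO CKO and 99.98, 109.8 and 110.3 CPM in FO control libraries. It too did not overlap between the cell types (log2 0.36, adjusted p = 0.0063, in CKO mice and log2 0.28, adjusted p = 0.01, in control mice).

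Dnajb9, the J-domain protein ERdj4, had 14.9, 14.8 and 12.9 CPM in MZ CKO and 18.1, 15.2 and 13.99 CPM in MZ control libraries. Dnajb9 came to 11.1, 13.1 and 11.3 CPM in FO CKO and 12.4, 13.2 and 10.6 CPM in FO control libraries. The CKO groups overlapped and the control groups did not, and it passed in control mice alone (log2 0.27, adjusted p = 0.17, in CKO mice and log2 0.39, adjusted p = 0.04, in control mice). The call was lost without MZ control replicate 1, FO control replicate 1 or FO control replicate 3 (adjusted p 0.17, 0.072 and 0.14). It was also lost with all libraries kept, by limma-voom (adjusted p = 0.054) and by edgeR with no robust step (adjusted p = 0.061). Hsp90b1, the ER Hsp90 known as GRP94, had 327, 276 and 266 CPM in MZ CKO and 282, 288 and 254 CPM in MZ control libraries. Hsp90b1 was at 274, 259.5 and 239 CPM in FO CKO and 245, 239 and 243 CPM in FO control libraries. It was higher in the MZ library of every mouse, yet the difference did not pass (log2 0.18, adjusted p = 0.25, in CKO mice and log2 0.18, adjusted p = 0.07, in control mice). With the mouse as a block it passed in control mice (adjusted p = 0.016). Some 15.7% of its exon bases lie in other genes too. Sdf2l1, a partner of the J-domain chaperone Dnajb11, had 31.2, 30.5 and 27.2 CPM in MZ CKO and 23.7, 26.1 and 24.5 CPM in MZ control libraries. Sdf2l1 stood at 24.02, 26.6 and 26.8 CPM in FO CKO and 22.6, 23.4 and 22.8 CPM in FO control libraries. It passed in neither genotype (log2 0.21, adjusted p = 0.16, in CKO mice and log2 0.11, adjusted p = 0.34, in control mice). Hyou1 and Dnajb11 had log2 fold changes between -0.12 and -0.03 and did not pass either.

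**Figure D2:**
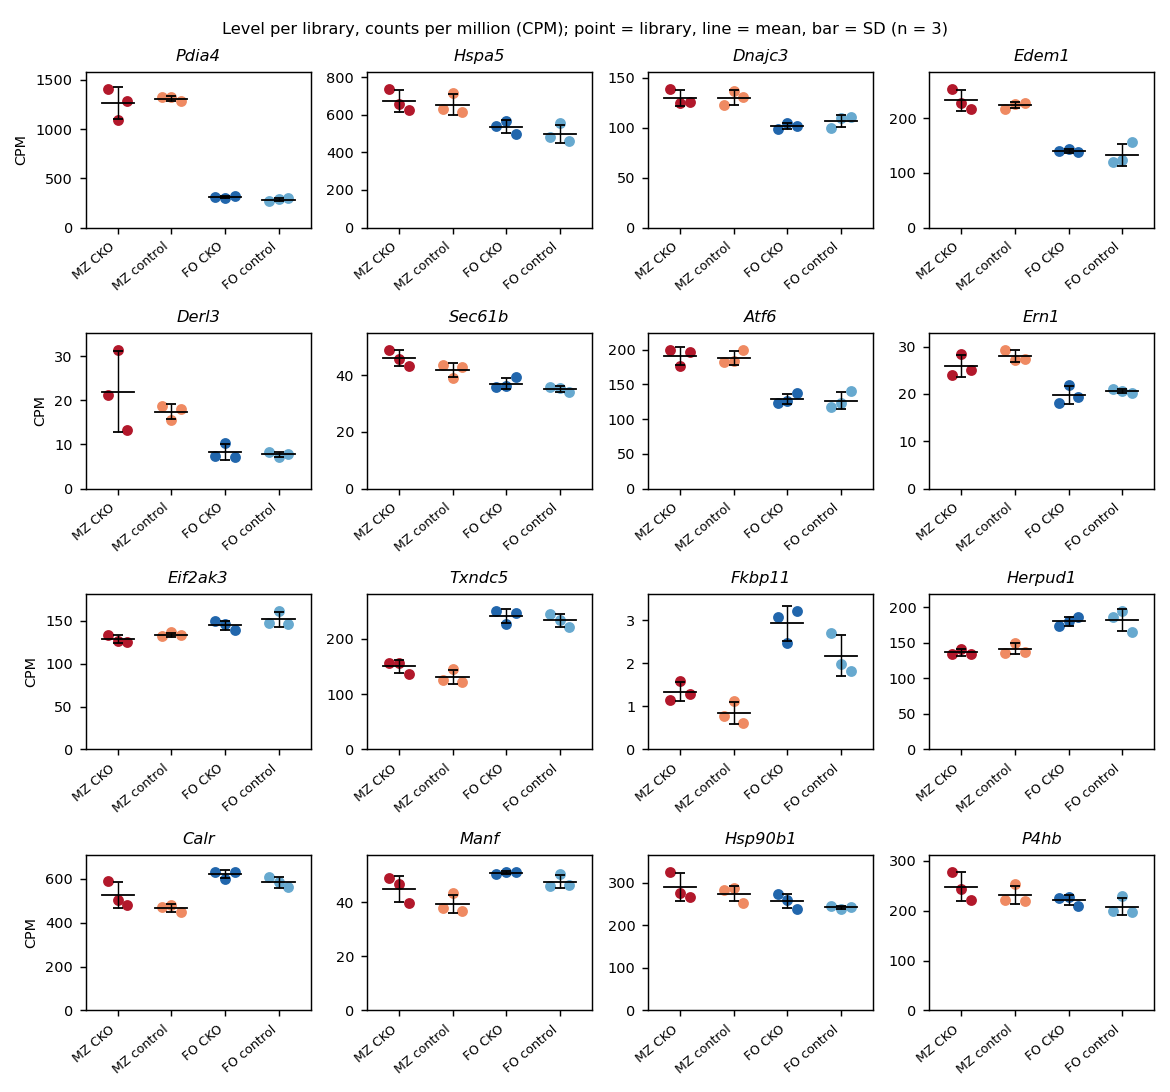
Level in CPM of 16 of the genes in each library, with the mean (line) and SD (bar) of 3 libraries per group; groups run from MZ CKO and MZ control to FO CKO and FO control, and each vertical axis starts at 0. The 6 MZ libraries lie above the 6 FO libraries for Pdia4, Edem1, Derl3 and Atf6, and below them for Txndc5, Fkbp11 and Herpud1.

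The sensors of the UPR did not move together. Atf6, the membrane-bound transcription factor that is cut free under stress, had 200.2, 176 and 196 CPM in MZ CKO and 182, 183 and 199 CPM in MZ control libraries. Atf6 measured 124, 126 and 137 CPM in FO CKO and 118, 123 and 140.2 CPM in FO control libraries. Ern1, the kinase and ribonuclease that splices Xbp1 mRNA, had 24.01, 28.5 and 25.1 CPM in MZ CKO and 29.4, 27.1 and 27.4 CPM in MZ control libraries. Ern1 came to 18.1, 21.9 and 19.3 CPM in FO CKO and 21.1, 20.6 and 20.2 CPM in FO control libraries. For both genes every MZ library was above every FO library. Atf6 rose 1.49-fold in CKO mice (adjusted p = 8.5e-04) and 1.48-fold in control mice (adjusted p = 2.4e-04), and Ern1 1.32-fold (adjusted p = 0.032) and 1.36-fold (adjusted p = 0.0015). The Ern1 call in CKO mice was lost without any 1 library other than FO CKO replicate 2 (adjusted p between 0.058 and 0.14).

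Eif2ak3, whose kinase product PERK slows translation, had 134, 127 and 126 CPM in MZ CKO and 132, 137 and 133 CPM in MZ control libraries. Eif2ak3 was at 149.7, 146 and 139 CPM in FO CKO and 147, 162 and 146 CPM in FO control libraries. It was lower in the MZ library of 6 of 6 mice and its groups did not overlap, but it missed the threshold (log2 -0.16, adjusted p = 0.11, in CKO mice and log2 -0.18, adjusted p = 0.061, in control mice). It passed as lower with the mouse as a block (adjusted p = 0.048 in CKO and 0.011 in control mice), and by DESeq2 in control mice (adjusted p = 0.042). These are levels of mRNA, which do not measure whether a sensor is active.

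ERAD returns misfolded proteins to the cytosol, and 4 of its 9 genes rose in MZ B cells of both genotypes while 1 fell. Of all genes tested, 10.5% were higher and 7.78% lower in CKO mice, and 14.9% and 13.0% in control mice. Edem1, a mannosidase-like protein that marks misfolded glycoproteins, had 254, 228 and 217 CPM in MZ CKO and 217, 226 and 228 CPM in MZ control libraries. Edem1 stood at 139, 144 and 138 CPM in FO CKO and 119, 124 and 156 CPM in FO control libraries. It rose 1.67-fold in CKO mice (adjusted p = 2.3e-04) and 1.69-fold in control mice (adjusted p = 1.7e-04). Its relative Edem2 had 79.3, 77.9 and 79.3 CPM in MZ CKO and 74.1, 76.1 and 78.4 CPM in MZ control libraries. Edem2 measured 61.9, 65.9 and 66.6 CPM in FO CKO and 63.03, 64.6 and 59.9 CPM in FO control libraries. The Edem2 rise was smaller (log2 0.29, adjusted p = 0.012, in CKO mice and log2 0.29, adjusted p = 0.0057, in control mice), and was lost in CKO mice without FO CKO replicate 1 (adjusted p = 0.079).

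The derlins form part of the channel through which ERAD substrates leave. Derl3 had 21.1, 31.6 and 13.3 CPM in MZ CKO and 18.7, 15.5 and 18.1 CPM in MZ control libraries. Derl3 came to 7.33, 10.4 and 7.10 CPM in FO CKO and 8.31, 7.10 and 7.81 CPM in FO control libraries. Its MZ CKO libraries spread more than those of any other of the 40 genes in that group, with a coefficient of variation of 41.7%, and still did not overlap FO CKO libraries. The rise was 2.67-fold in CKO mice (adjusted p = 0.043) and 2.25-fold in control mice (adjusted p = 2.2e-05). In CKO mice it missed the threshold with no filter on low counts (adjusted p = 0.13). It also did so when FO CKO replicate 1, 2 or 3 or MZ CKO replicate 1 was left out (adjusted p 0.16, 0.071, 0.15 and 0.10).

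Derl1 had 175, 146 and 150.1 CPM in MZ CKO and 144, 159.6 and 163 CPM in MZ control libraries. Derl1 was at 123, 125 and 125 CPM in FO CKO and 130.2, 135 and 131 CPM in FO control libraries. It rose by less (log2 0.34, adjusted p = 0.016, in CKO mice and log2 0.24, adjusted p = 0.02, in control mice). Its call was lost in CKO mice without FO CKO replicate 1 or 3 (adjusted p = 0.075 and 0.055), and in control mice without FO control replicate 1 or 3 or MZ control replicate 2 or 3 (adjusted p between 0.053 and 0.11). Derl2 had 47.8, 39.01 and 43.5 CPM in MZ CKO and 49.3, 45.9 and 48.2 CPM in MZ control libraries. Derl2 stood at 49.1, 46.9 and 50.3 CPM in FO CKO and 45.8, 45.2 and 50.9 CPM in FO control libraries. Its groups overlapped in both genotypes and it did not pass (log2 -0.16, adjusted p = 0.26, in CKO mice and log2 0.01, adjusted p = 0.92, in control mice).

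Herpud1, an ER membrane protein that assembles the ERAD complex and is a known UPR target, fell in MZ B cells. It had 134, 142 and 134 CPM in MZ CKO and 136, 150.3 and 138 CPM in MZ control libraries. Herpud1 measured 174, 181 and 186 CPM in FO CKO and 186, 195 and 165 CPM in FO control libraries. No MZ library reached the lowest FO library, and the fall passed in both genotypes (log2 -0.39, adjusted p = 0.0026, in CKO mice and log2 -0.36, adjusted p = 0.0042, in control mice). Sel1l and Syvn1, the core of the main ERAD ubiquitin ligase, and Edem3 passed in neither genotype, with log2 fold changes of 0.07 and 0.02 for Sel1l, 0.01 and 0.06 for Syvn1 and -0.13 and -0.23 for Edem3 in CKO and control mice. In control mice Edem3 passed as lower with the mouse as a block (adjusted p = 6.6e-04), with no filter on low counts (adjusted p = 0.017) and without FO control replicate 1 or MZ control replicate 2 (adjusted p = 0.035 and 0.02).

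The lectin chaperones bind sugar chains of new glycoproteins. Calr, the soluble one, had 590.3, 502 and 479.9 CPM in MZ CKO and 472, 479.5 and 446 CPM in MZ control libraries. Calr came to 630.3, 599 and 632 CPM in FO CKO and 609, 583 and 560 CPM in FO control libraries. The groups did not overlap within either genotype, and the fall passed in control mice but not in CKO mice (log2 -0.24, adjusted p = 0.12, in CKO mice and log2 -0.33, adjusted p = 0.0032, in control mice). In CKO mice it passed without MZ CKO replicate 1 (adjusted p = 0.024) and with the mouse as a block (adjusted p = 0.016). Canx, the membrane-bound one, had log2 fold changes of 0.08 and 0.02 and did not pass.

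Fkbp11, a prolyl isomerase known from plasma cells, was the gene with the lowest level per kilobase in all 4 groups and the largest fall in MZ B cells. It had 1.14, 1.58 and 1.30 CPM in MZ CKO and 0.787, 1.13 and 0.621 CPM in MZ control libraries. Fkbp11 was at 3.08, 2.47 and 3.22 CPM in FO CKO and 2.71, 1.99 and 1.83 CPM in FO control libraries. Even the highest MZ library was below the lowest FO library, and the fold change was 0.461 in CKO mice (adjusted p = 0.0069) and 0.392 in control mice (adjusted p = 0.0032). Fkbp2, the other prolyl isomerase, had log2 fold changes of -0.18 and -0.15 and did not pass.

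The UPR-induced secreted protein gene Manf had 48.7, 46.6 and 39.6 CPM in MZ CKO and 37.9, 43.2 and 36.7 CPM in MZ control libraries. Manf stood at 50.2, 51.2 and 51.2 CPM in FO CKO and 45.8, 50.3 and 46.3 CPM in FO control libraries. It was lower in MZ libraries without overlap in both genotypes and passed in control mice only (log2 -0.17, adjusted p = 0.23, in CKO mice and log2 -0.27, adjusted p = 0.024, in control mice), and that call was lost without FO control replicate 2 or MZ control replicate 1 or 3 (adjusted p 0.10, 0.090 and 0.12). Creld2, a disulfide isomerase-like UPR target, had 39.9, 38.2 and 34.7 CPM in MZ CKO and 32.8, 34.6 and 30.1 CPM in MZ control libraries. Creld2 measured 42.2, 37.8 and 37.1 CPM in FO CKO and 39.8, 36.98 and 32.6 CPM in FO control libraries. Its groups overlapped and it did not pass (log2 -0.05, adjusted p = 0.78, in CKO mice and log2 -0.17, adjusted p = 0.21, in control mice). With the mouse as a block Creld2 passed as lower in control mice (adjusted p = 0.039).

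The translocon carries new chains into the ER, the TRAP complex (Ssr1 to Ssr4) assists it, and signal peptidase cuts the signal. The 10 genes all had positive log2 fold changes in both genotypes, but small ones, from 0.01 to 0.32. Over all genes tested, 49% were positive in CKO and 50.8% in control mice. Within single mice Sec61a1, Sec61b, Spcs1, Ssr2 and Ssr4 were higher in the MZ library of 6 of 6. Sec63, Spcs2 and Spcs3 were so in 5, Ssr1 in 4 and Ssr3 in 3. Sec61b, a translocon subunit, had 49.01, 45.7 and 43.2 CPM in MZ CKO and 43.5, 39 and 42.9 CPM in MZ control libraries. Sec61b came to 35.7, 36.01 and 39.3 CPM in FO CKO and 35.8, 35.3 and 33.9 CPM in FO control libraries. It passed in both (log2 0.32, adjusted p = 0.024, in CKO mice and log2 0.26, adjusted p = 0.022, in control mice). That call was lost without FO CKO replicate 1 or 2 or MZ CKO replicate 1 in CKO mice (adjusted p between 0.081 and 0.11), and without FO control replicate 2 or 3 or MZ control replicate 1 or 3 in control mice (adjusted p between 0.059 and 0.095). Ssr4 passed in control mice (log2 0.22, adjusted p = 0.035) and not in CKO mice (log2 0.18, adjusted p = 0.18), and its call was lost by DESeq2 (adjusted p = 0.054) and without FO control replicate 1 or 3 or MZ control replicate 1 or 3 (adjusted p between 0.079 and 0.15). The other 8, Sec61a1, Sec63, Ssr1, Ssr2, Ssr3, Spcs1, Spcs2 and Spcs3, did not pass in either genotype. Of these Ssr2 passed as higher with the block in both (adjusted p = 0.0051 in CKO and 0.024 in control mice), and Sec61a1 in CKO mice (adjusted p = 0.027). In CKO mice Ssr2 also passed without MZ CKO replicate 3 (adjusted p = 0.024) and with no filter on low counts (adjusted p = 0.034).

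Summed over the 40 genes, the level was 6324 to 7142 CPM in MZ CKO, 6281 to 6641 in MZ control, 5336 to 5416 in FO CKO and 5118 to 5330 in FO control libraries. Pdia4 alone made up 17.2% to 20.9% of the sum in MZ libraries and 5.16% to 6.05% in FO libraries. Without it the other 39 genes summed to 5035 to 5731 CPM in MZ CKO, 5001 to 5319 in MZ control, 5013 to 5102 in FO CKO and 4820 to 5041 in FO control libraries, so that the cell types overlapped within each genotype. Within single mice this sum was still higher in the MZ library of 6 of 6, by 12.3%, 3.27% and 0.437% in the CKO mice and by 2.24%, 5.5% and 3.75% in the control mice. The highest sum was that of MZ CKO replicate 1, which was the highest of its group for 32 of the 40 genes.

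**Figure D3:**
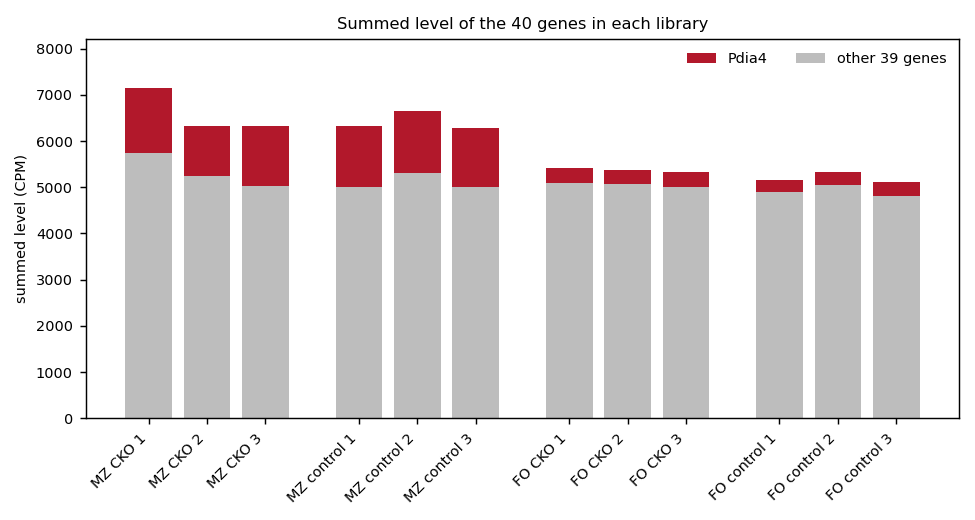
Summed level of the 40 genes in CPM for each of the 12 libraries, split into Pdia4 (red) and the other 39 genes (grey). The red part is large in the 6 MZ libraries and small in the 6 FO libraries, while the grey part is 4820 to 5731 CPM throughout.

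The 11 genes with an ERSE or ERSE-II did not share a direction. In CKO mice 3 were higher in MZ B cells (Derl3, Dnajc3 and Hspa5), 1 was lower (Herpud1) and 7 did not pass, with a median log2 fold change of 0.01. In control mice the same 3 were higher, 2 were lower (Calr and Herpud1) and 6 did not pass, with a median of 0.02. Of the 22 genes with a window and neither element, 5 were higher and 2 lower in CKO mice, and 7 were higher and 2 lower in control mice, with medians of 0.12 and 0.10. Of the 3 genes with TGACGTG, Hspa5 was higher and Fkbp11 and Txndc5 were lower in both genotypes. Over all genes tested, 10.5% passed as higher and 7.78% as lower in CKO mice, and 14.9% and 13.0% in control mice.

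**Figure D4:**
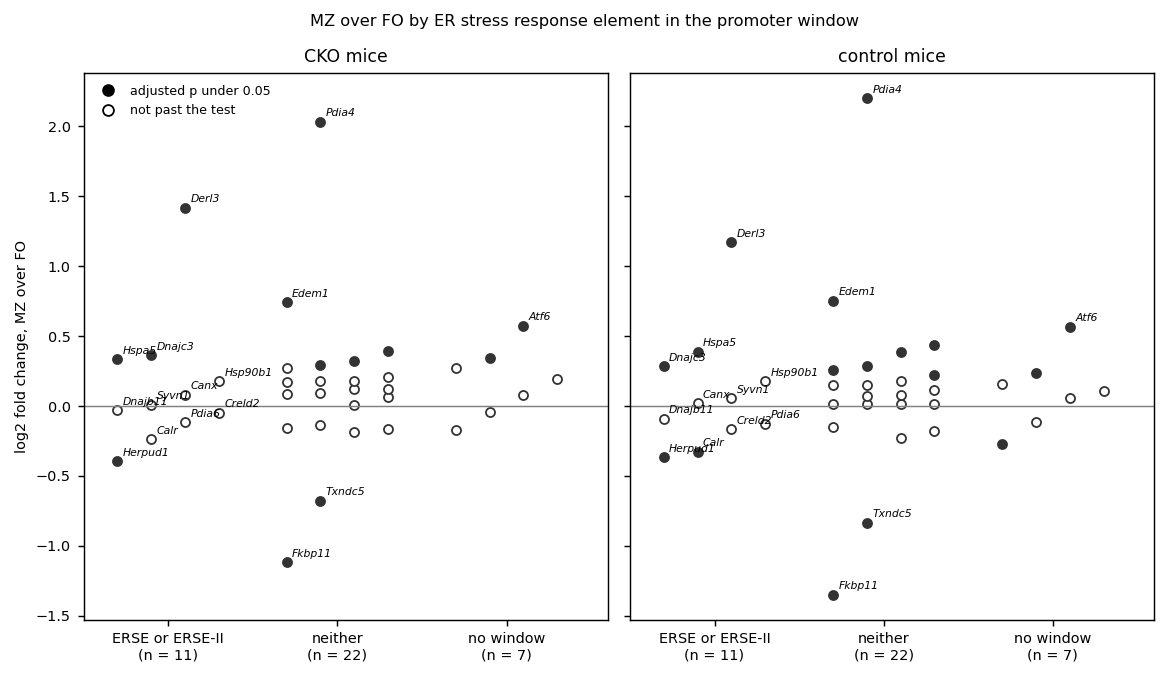
Log2 fold change of MZ over FO B cells for the 40 genes, split by whether the promoter window held an ERSE or ERSE-II (11 genes), neither (22) or was not at hand (7), in CKO mice on the left and control mice on the right; filled points passed at an adjusted p under 0.05, and horizontal offsets only separate the points. In the first class Derl3 lies highest and Herpud1 lowest in both panels.

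Of 95 further genes of the same pathways, 93 could be tested in CKO and 92 in control mice. In CKO mice 10 were higher and 2 lower in MZ B cells (12.9% of those tested), and in control mice 14 were higher and 6 lower (21.7%), both smaller shares than the 18.3% and 27.9% of all genes. The first by adjusted p in each was Mzb1, an ER chaperone of immunoglobulin M that is also 1 of the 8 MZ markers used above. Mzb1 had 382, 308 and 336 CPM in MZ CKO and 336, 313 and 327 CPM in MZ control libraries. Mzb1 was at 121, 115 and 142 CPM in FO CKO and 106, 109 and 102 CPM in FO control libraries. It rose in both genotypes (log2 1.45, adjusted p = 4.0e-05, in CKO mice and log2 1.62, adjusted p = 2.5e-08, in control mice). The ER folding genes Erp29 (log2 0.48 in CKO and 0.43 in control mice), Sil1, the nucleotide exchange factor of BiP (0.55 and 0.48), and Prkcsh, a glucosidase subunit (0.42 and 0.40), rose in both genotypes. So did Wfs1, an ER membrane protein (0.69 and 0.87), the eIF2alpha kinase gene Eif2ak1 (0.47 and 0.29) and Vcp, the ATPase that pulls ERAD substrates out (0.46 and 0.27). The signal peptidase gene Sec11c rose in control mice (log2 0.35, adjusted p = 0.0014) and did not pass in CKO mice (log2 0.19). Cdk2ap2, also on the list, encodes a CDK2-associated protein and not an ER folding enzyme. It fell in control mice (log2 -0.29, adjusted p = 0.0051) and did not pass in CKO mice (log2 -0.17).

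Xbp1, Atf4 and Ddit3, transcription factor genes of the UPR, did not pass as higher in MZ B cells. Xbp1, the target of IRE1, had 149, 142 and 136 CPM in MZ CKO and 143, 144 and 143 CPM in MZ control libraries. Xbp1 stood at 134, 139.8 and 139.5 CPM in FO CKO and 131, 138 and 139 CPM in FO control libraries. It did not pass (log2 0.05, adjusted p = 0.63, in CKO mice and log2 0.08, adjusted p = 0.4, in control mice). Counts per gene do not separate its spliced from its unspliced mRNA. Atf4, whose translation PERK signalling raises, had 194, 213 and 219.9 CPM in MZ CKO and 224, 199 and 204 CPM in MZ control libraries. Atf4 measured 257, 253 and 271 CPM in FO CKO and 279.7, 251 and 224 CPM in FO control libraries. It fell in both (log2 -0.31, adjusted p = 0.016, in CKO mice and log2 -0.27, adjusted p = 0.036, in control mice). Ddit3, the stress factor CHOP, had 19.8, 24.3 and 24.1 CPM in MZ CKO and 23.02, 21.8 and 21.6 CPM in MZ control libraries. Ddit3 came to 25.3, 25.4 and 28.1 CPM in FO CKO and 24.5, 26.5 and 23.3 CPM in FO control libraries. It passed in neither (log2 -0.20, adjusted p = 0.22, in CKO mice and log2 -0.16, adjusted p = 0.19, in control mice).

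Deletion of Zbtb24 changed none of the 40 genes past the test in either cell type. In MZ B cells 0 of 40 passed by edgeR and 0 by DESeq2, where 0.0793% and 0.215% of all genes passed. An unadjusted p under 0.05 in edgeR was met by 3 of the 40, and by 512 of all 17658 genes tested. In FO B cells 0 of 40 passed by edgeR and 0 by DESeq2, where 0.0900% and 0.225% of all genes passed. An unadjusted p under 0.05 in edgeR was met by 0 of the 40, and by 717 of all 17777 genes tested. The median log2 fold change of CKO over control was 0.05 in MZ and 0.05 in FO B cells, against -1.9e-05 and 0.01 over all genes tested, and 29 of 40 genes were positive in each, against 50% and 52% of all genes. The MZ and FO libraries come from the same mice, so these are not 2 independent counts. At a background this low, 0 calls among 40 genes says little by itself. The 95% confidence interval lay wholly within ±0.5 log2 for 38 of 40 genes in MZ and 39 of 40 in FO B cells.

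Sdf2l1 came first in both cell types, with a log2 fold change of 0.26 in MZ (95% confidence interval 0.05 to 0.46, adjusted p = 1) and 0.17 in FO B cells (-0.00 to 0.35, adjusted p = 0.9995). In MZ B cells Creld2 (0.21, 0.01 to 0.41), Fkbp11 (0.65, 0.01 to 1.30) and Txndc5 (0.19, -0.00 to 0.39) followed, and in FO B cells Fkbp11 (0.43, -0.04 to 0.90), Pdia4 (0.13, -0.02 to 0.28) and Manf (0.10, -0.04 to 0.25). For Fkbp11, with 0.621 to 1.58 CPM in MZ and 1.83 to 3.22 CPM in FO libraries, these intervals are wide. The values of the MZ CKO group leaned on 1 library: without MZ CKO replicate 1 the median over the 40 genes was -0.0024 and 20 of 40 were positive. Of other cell types, the 7 neutrophil markers summed to 67.8 to 235 CPM in MZ CKO, 44.9 to 136 in MZ control, 117 to 386 in FO CKO and 72.8 to 186 in FO control libraries, with a median log2 fold change of 0.997 in MZ and 0.984 in FO B cells. All 7 had positive log2 fold changes in both cell types and none passed by edgeR (0 in MZ and 1 in FO B cells at an unadjusted p under 0.05). The 7 T cell markers all had negative log2 fold changes in FO B cells (median -0.25), with sums of 169 to 232 CPM in FO CKO and 243 to 277 in FO control libraries that did not overlap. In MZ B cells 6 of the 7 were negative (median -0.08), with sums of 104 to 159 CPM in MZ CKO and 119 to 196 in MZ control libraries that did. The 5 B-1 cell markers summed to 111 to 129 CPM in MZ CKO against 92.2 to 102 in MZ control libraries, and to 98.97 to 106 CPM in FO CKO against 89.9 to 98.4 in FO control libraries, without overlap in either cell type. Of 10 cytosolic heat shock genes 9 had positive log2 fold changes in each cell type, with overlapping sums. None of the 65 markers tested and none of the handling genes passed by edgeR in either comparison. An unadjusted p under 0.05 was met by 5 markers in MZ and 11 in FO B cells. Over all genes 512 of 17658 met it in MZ and 717 of 17777 in FO B cells. The part of these cells and of handling in the values of the 40 genes was not tested.

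**Figure D5:**
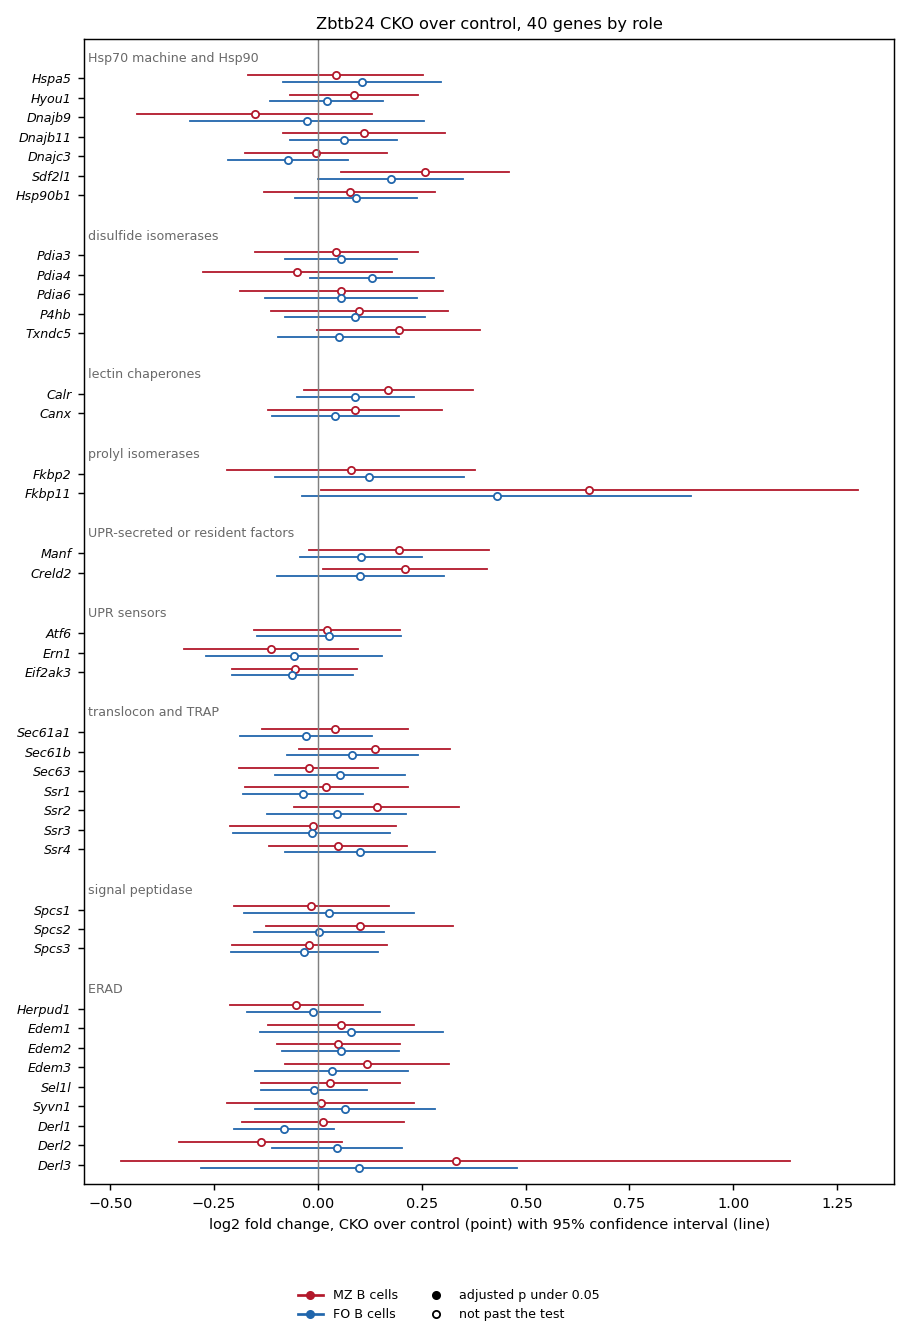
Log2 fold change of CKO over control for each of the 40 genes, grouped by role, in MZ (red, upper point of each pair) and FO B cells (blue, lower point), with 95% confidence intervals; open points did not pass. No point is filled. The widest intervals belong to Fkbp11 and Derl3.

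The effect of the deletion also did not differ between MZ and FO B cells past the test for any of the 40 genes, by edgeR or by DESeq2, and of all 18546 genes tested 0% passed by either. In these fits the libraries of a mouse were not paired. Of the 40, 0 had an unadjusted p under 0.05 in edgeR without a block, against 238 of all 18546 genes tested. When the mouse was a block, 0 of the 40 passed and 4 of all 18546 genes did (edgeR). In that fit 968 of all genes had an unadjusted p under 0.05. The smallest p without the block were those of Derl2 (MZ minus FO log2 -0.18, 95% confidence interval -0.42 to 0.06), Pdia4 (-0.18, -0.44 to 0.09), Txndc5 (0.15, -0.10 to 0.39) and Derl1 (0.10, -0.12 to 0.31). The interval lay within ±0.5 log2 for 37 of 40 genes. Of the 95 further pathway genes, 0 of the 92 tested in MZ and 0 of the 93 tested in FO B cells passed for CKO against control, with 1 and 2 at an unadjusted p under 0.05, and 0 of 93 passed for the difference, with 1 at an unadjusted p under 0.05 (edgeR). Over all genes, an unadjusted p under 0.05 in edgeR was met by 512 of 17658 in MZ and 717 of 17777 in FO B cells. For the difference 238 of 18546 met it without the block. DESeq2 called 0 of the 95 genes in each of the 3 comparisons.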

How the data were processed

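The authors deposited unnormalized counts of reads for each Ensembl gene, made with TopHat and HTSeq on GRCm38 and followed by DESeq2, per the submitters' processing notes, which name no versions. Libraries were made from 0.1 ug of total RNA with a TruSeq kit, per the labels' protocols; the annotation release and strand setting of the counting are not given in the sources used here. Symbols, coordinates and exon lengths came from GENCODE M21 on the same build, and 45229 of 46078 genes had a symbol. The 5 entries that name no gene (43.2% to 50.4% of listed reads) stayed out of every test and library size.

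The fits used edgeR 4.0.16 under R 4.3.3: filterByExpr, TMM, a robust quasi-likelihood F test within the 6 libraries of a comparison (all 12 for the difference of genotype effects), two-sided, Benjamini-Hochberg over all genes, and a 95% confidence interval of each log2 fold change from its standard error. The method was tested on simulated counts. Alternatives were RLE size factors, DESeq2 1.42.0, limma-voom 3.58.1, no robust step, no count filter, a replicate block, the animal number series as a covariate and leaving out each library.

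Same-numbered MZ and FO libraries carry the same animal number and deviated together from their group means (correlations 0.688, 0.835 and 0.783 in CKO and 0.675, 0.781 and 0.679 in control mice), so the number pairs them. Named with values in every library are, for each comparison, up to 12 genes past the test with the smallest adjusted p, or the 4 with the smallest p where fewer than 4 passed, and Atf6, Ern1, Eif2ak3, Hspa5, Hsp90b1, Dnajb9, Herpud1, Sdf2l1, Creld2, Manf and Derl3. Of the further pathway genes, up to 6 per comparison were named in the same way, with Xbp1, Atf4 and Ddit3. The 40 genes and all other lists were chosen with earlier results of these data known. Pseudogene copies Calr-ps and Spcs2-ps had 2 and 3 reads over all libraries. Promoter sequences are from RefSeq, GRCm38.p6.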

Additional observations from a re-analysis of the deposited data

How the results depend on the processing

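Under RLE size factors, DESeq2, limma-voom, no robust step and no count filter, 13 of the 40 genes passed for MZ against FO in CKO mice each time and 16 to 18 in control mice. With the replicate block, which is the mouse, 20 passed in CKO mice and 24 in control mice. Leaving out each library in turn gave 7 to 13 in CKO mice and 13 to 17 in control mice. Creld2, not called in CKO mice (log2 -0.05), ranged from -0.10 to 0.0084 with a library left out and was above 0 without FO CKO replicate 1 (0.0065) and without MZ CKO replicate 3 (0.0084); the cause was not tested. For CKO against control in MZ and in FO B cells, and for the difference between them, 0 of 40 passed under every alternative run, the animal number series as a covariate, the replicate block and each left-out library included. For the difference between them the block was the mouse, which pairs the MZ and FO libraries of each animal. For CKO against control within a cell type the replicate numbers mark different mice, so that block does not pair libraries of 1 animal. Same-numbered libraries correlated at -0.148, 0.451 and 0.446 in MZ and 0.0871, 0.381 and 0.365 in FO B cells. The highest correlations with another number were 0.108, -0.106 and 0.243 in MZ and 0.00533, -0.127 and 0.0615 in FO B cells. What same-numbered mice may share was not tested. With 3 libraries per group small differences were detectable in part in simulated counts. Of 100 genes given a log2 change of 0.5, 45% were recovered for CKO against control in MZ (17392 genes) and 39% in FO B cells (17496 genes). For MZ against FO it was 33% in CKO (17456 genes) and 53% in control mice (17611 genes). For the difference between the genotype effects it was 16% (18300 genes). Another 100 genes were given a log2 change of 1, and all changed genes were drawn from those above a CPM minimum. The adjusted threshold depends on how many genes change. In the data 14 genes passed for CKO against control in MZ and 16 in FO B cells. For MZ against FO 3243 passed in CKO and 4977 in control mice. The recovered shares therefore do not carry over directly to the data, nor to genes of low level such as Fkbp11.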
